A study of Mus musculus with 4 samples.

Results

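Mast cell genes for granule content, cell identity and signalling from the IgE receptor were followed across 4 arrays of the mouse line MC/9. The 42 genes were listed by name: 14 encode granule proteases and mediators, 7 encode identity receptors and transcription factors, and 21 encode the chains of the IgE receptor FceRI and the proteins that act next to it. Probe sets annotated to a single symbol were found for 40 of the 42, among 18193 genes so named on the array. No such probe set was found for Il1rl1, which encodes the receptor for interleukin 33, or for Lyn, which encodes the first kinase at FceRI. Both genes therefore have no signal here, and Il1rl1 enters only the promoter counts. The 40 genes were read by 70 of 45037 probe sets, and the brightest probe set of a gene, by mean signal, stood for it. No signal value enters the rule that lists them, although the list was drawn up with earlier results of these data known.

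MC/9 is a mast cell line that depends on growth factors, labelled as established from the liver of (B6 X A/J)F1 mice at an age of 13 days and grown in medium with the supplement Rat T-STIM. The control cells were labelled as not treated. BER cells received berberine, a plant alkaloid, at 10 microM. DNP cells received an IgE antibody that binds the hapten dinitrophenyl (anti-DNP IgE) at 500 microg/ml, and BER+DNP cells received both. For the 3 treated groups the labels give 24 h with the agents and then 6 h of culture. No times are given for the control, and no step with antigen is named for any group. The series title names the aim, to find genes behind the anti-inflammatory effect of berberine in such cells. Each group holds 1 Affymetrix Mouse Genome 430 2.0 array, so there is no replicate error, no test was made and no p-value is given. A difference between 2 arrays compares those arrays, and the number of arrays limits the precision.

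Mast cells store proteases, histamine and the proteoglycan serglycin in granules. FceRI consists of an IgE-binding alpha chain, a beta chain and a gamma chain dimer. Crosslinking of bound IgE by antigen lets the kinase Lyn phosphorylate the beta and gamma chains. Syk then binds them and phosphorylates the adaptor LAT, on which phospholipase C gamma, GRB2 and VAV1 assemble, and calcium release empties the granules. The mast cell fate rests on KIT, the receptor for stem cell factor, and on transcription factors that include GATA2, PU.1 (Spi1) and MITF.

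Signals are log2 values as deposited. The medians of the 4 arrays lay between 3.13 and 3.15, and correlations between arrays across probe sets ran from 0.988 to 0.991. A gene was called measured when its mean signal reached 3.138, the median of all probe sets. That line is not a detection limit, and signals of different probe sets do not rank the expression of their genes. Of all 18193 genes, 69.2% lay at or above it. The labelled cell type was checked against marker lists. Of 12 mast cell markers, 11 had a probe set and 5 were measured, namely Hdc, Gata2, Tpsb2, Cma1 and Mcpt4. The other 6 were below the line, and they include Cpa3, Kit, Fcer1a and Ms4a2, the genes that define mast cells most closely, and Slc18a2, the granule monoamine transporter gene, at a mean of 1.53. Of 12 genes that nearly all leukocytes use, 8 were measured, while Ptprc read 2.29 and Cd53 2.19 on average. Of 10 epithelial genes, 9 were measured, from Krt18 at 3.91 to Krt17 at 9.60, both keratin genes, while the cadherin gene Cdh1 was below the line. Passing the line does not mark a cell type, since all 4 hepatocyte genes, all 3 erythroid genes and all 3 B cell genes with a probe set passed it too. In RNA from a whole culture, fewer cells of a type and less RNA per cell cannot be told apart.

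**Figure D1:**
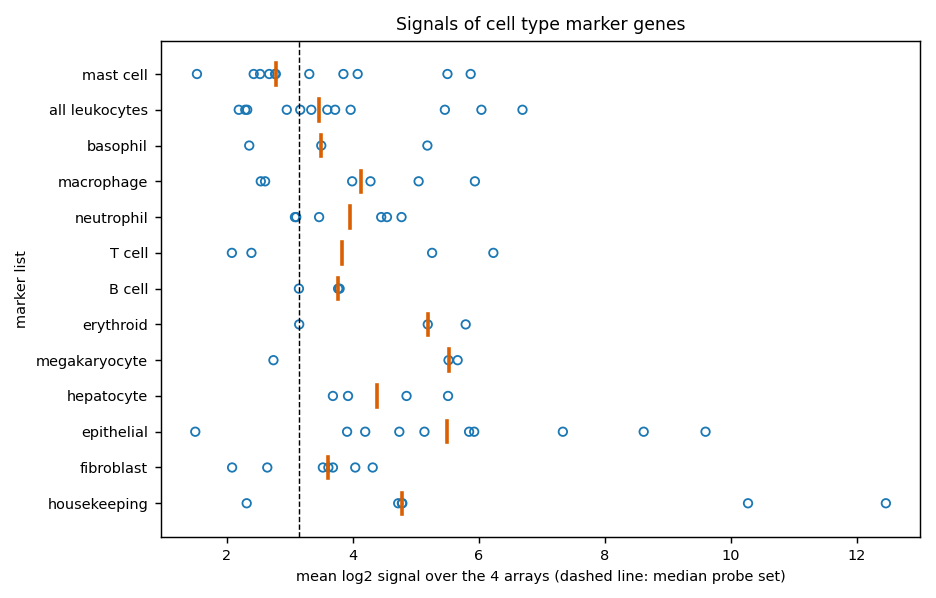
Mean log2 signal over the 4 arrays (x axis) of each marker gene in 13 marker lists (y axis). Each circle is 1 gene, the orange bar is the list's median and the dashed line is the median probe set. The mast cell list has 6 of 11 genes left of the line, and the epithelial list has 9 of 10 to its right.

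Of the 40 genes, 29 were measured (72.5%, against 69.2% of all genes), a share near that of the whole array. On every array, 27 (67.5%, against 65.2% of all genes) read at or above that array's median. Below it on every array were 10, as were 4940 of all 18193 genes. The remaining 3, Cma1, Gata1 and Pik3cg, crossed it. By role, 9 of 14 granule genes, 3 of 6 identity genes and 17 of 20 receptor and signalling genes were measured. The 10 genes below the median on all arrays were Mcpt1, Tpsab1, Cpa3, Gzmc and Srgn among granule genes, Kit and Mitf among identity genes, and Fcer1a, Ms4a2 and Fyn among receptor and signalling genes.

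**Figure D2:**
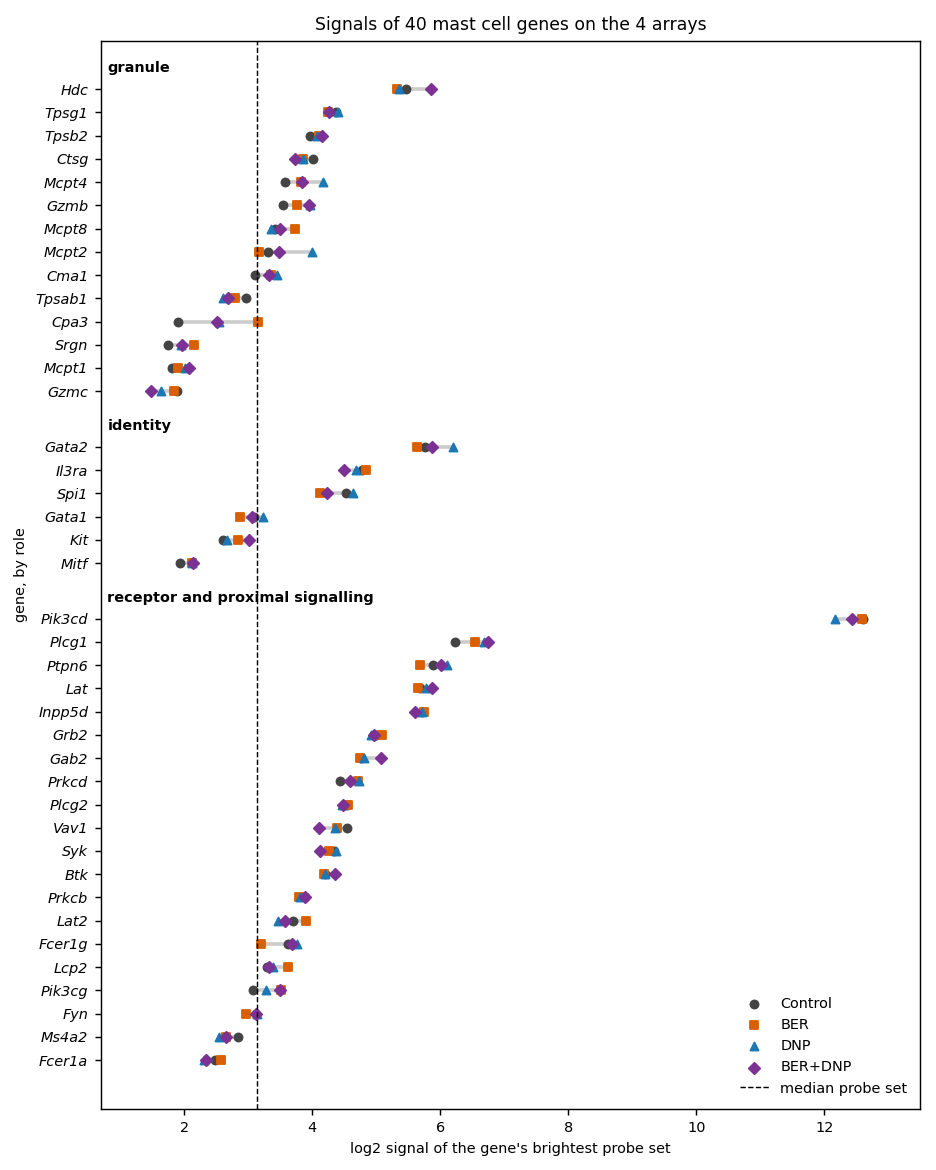
Log2 signal (x axis) of the brightest probe set of each of 40 genes (y axis, by role), with 1 symbol for each array, a grey bar from the lowest to the highest and a dashed line at the median probe set, 3.138. The 4 symbols of most genes lie close together. Cpa3 spans the most, from 1.90 to 3.15, followed by Mcpt2, from 3.17 to 3.99, and Pik3cd stands apart near 12.

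The promoters of a few of these genes are shown because GATA2, whose own gene was measured on these arrays, is a factor of the mast cell lineage that binds GATA motifs. The 4 printed genes are Cpa3, which had the largest difference of all members, the chymase genes Mcpt4 and Cma1, and the receptor gene Fcer1a. Each run is the 250 bases before the start in RefSeq, read from 5′ to 3′ toward the gene, and the capitals mark GATA with an A or a T before it and an A or a G after it, on either strand.
Cpa3 promoter, GRCm38.p6 chr3:20242182-20242431, minus strand: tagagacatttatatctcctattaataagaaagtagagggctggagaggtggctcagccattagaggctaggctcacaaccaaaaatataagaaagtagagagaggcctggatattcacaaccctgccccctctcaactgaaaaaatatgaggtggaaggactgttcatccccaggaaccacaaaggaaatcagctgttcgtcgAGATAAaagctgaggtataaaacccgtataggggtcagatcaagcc
Mcpt4 promoter, GRCm38.p6 chr14:56062311-56062560, minus strand: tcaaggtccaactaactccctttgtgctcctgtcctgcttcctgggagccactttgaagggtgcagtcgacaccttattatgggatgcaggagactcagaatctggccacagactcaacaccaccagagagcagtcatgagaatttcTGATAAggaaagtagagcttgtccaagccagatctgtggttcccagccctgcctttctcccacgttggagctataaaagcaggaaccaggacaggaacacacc
Cma1 promoter, GRCm38.p6 chr14:55944676-55944925, minus strand: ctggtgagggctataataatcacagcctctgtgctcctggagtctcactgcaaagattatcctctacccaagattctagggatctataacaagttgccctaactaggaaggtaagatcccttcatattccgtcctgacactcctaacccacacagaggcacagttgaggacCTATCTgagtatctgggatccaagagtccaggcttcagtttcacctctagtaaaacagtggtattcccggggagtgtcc
Fcer1a promoter, GRCm38.p6 chr1:173227230-173227479, minus strand: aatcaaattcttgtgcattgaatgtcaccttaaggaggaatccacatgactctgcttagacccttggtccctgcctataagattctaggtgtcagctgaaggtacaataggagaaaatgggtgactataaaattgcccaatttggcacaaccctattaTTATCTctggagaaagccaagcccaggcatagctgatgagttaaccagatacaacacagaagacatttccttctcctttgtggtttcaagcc
The marked letters begin at position -46 in Cpa3, -103 in Mcpt4, -79 in Cma1 and -92 in Fcer1a, counted back from the start. RefSeq windows were found for 35 of the 42 genes, 48 windows in all. GATA letters occurred in 20 of the 48 (41.7%), against 26.5% of 32851 windows of the same length. By gene, 18 of the 35 had them, where 29.7% of all 27025 genes with a window did. The 18 include Il1rl1, with GATA letters in each of its windows, although no signal was read for it. The 4 printed genes are all among the 18, while Kit, Gata1, Gata2, Fcer1g and other members had none. GAGGAA, letters bound by PU.1, occurred on either strand in 13 of the 48 (27.1%, against 23.3%). CATGTG or CACGTG, the E-boxes that MITF can bind, occurred in 9 of the 48 (18.8%, against 17.6%). Such letters describe the windows and show no binding.

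Among the granule genes, Hdc, which encodes the enzyme that makes histamine, read 5.46 in control and 5.32 in BER, and 5.36 in DNP and 5.86 in BER+DNP. The combined array was the highest and the other 3 lay within a narrow range. Tpsg1, the gene of a membrane-anchored tryptase, read 4.37, 4.24, 4.41 and 4.26 in the same order of arrays. Tpsb2, the gene of a soluble tryptase, read 3.97, 4.10, 4.08 and 4.15. Neither tryptase gene set any array apart. Ctsg, which encodes cathepsin G, read 4.02 in control and 3.86 in BER, and 3.85 in DNP and 3.73 in BER+DNP, so that control was highest. Gzmb, the granzyme B gene, read 3.54, 3.76, 3.96 and 3.95, with control lowest.

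The chymase family genes were closer to the line. Mcpt4 read 3.57 in control and 3.82 in BER, and 4.17 in DNP and 3.85 in BER+DNP. Mcpt2 read 3.31 in control and 3.17 in BER, and 3.99 in DNP and 3.47 in BER+DNP. In both genes the DNP array was the highest. Cma1 read 3.10, 3.36, 3.45 and 3.33, of which control was below the median. Mcpt8, which encodes a protease typical of basophils, read 3.42, 3.73, 3.35 and 3.49. Chymase family genes resemble each other in sequence, and a probe set may read more than its own gene.

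Cpa3, which encodes the mast cell carboxypeptidase, read 1.90 in control and 3.15 in BER, and 2.55 in DNP and 2.51 in BER+DNP. The control array was the lowest, the BER array was the highest at about the array median, and the arrays with anti-DNP IgE lay between them. The other dim granule genes varied less. Srgn, which encodes the core protein of serglycin, ran from 1.74 to 2.15, Tpsab1, another tryptase gene, from 2.61 to 2.96, Mcpt1 from 1.81 to 2.07 and Gzmc, a granzyme gene, from 1.48 to 1.88.

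Among identity genes, Gata2 read 5.76 in control and 5.64 in BER, and 6.20 in DNP and 5.87 in BER+DNP, with DNP highest. Spi1, the PU.1 gene, read 4.53 in control and 4.12 in BER, and 4.63 in DNP and 4.22 in BER+DNP. The arrays with berberine were the 2 lower ones. Il3ra, which encodes the alpha chain of the interleukin 3 receptor, read 4.77, 4.84, 4.69 and 4.50. Gata1, the gene of a related GATA factor, read 3.09, 2.87, 3.24 and 3.05, so that DNP alone exceeded its array's median. Kit read 2.60 in control and 2.84 in BER, and 2.66 in DNP and 3.01 in BER+DNP. It stayed below the median on every array. Mitf ran from 1.94 to 2.14.

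Of the 3 receptor chains, the alpha chain gene Fcer1a read 2.48 in control and 2.58 in BER, and 2.31 in DNP and 2.35 in BER+DNP. The beta chain gene Ms4a2 read 2.85, 2.65, 2.54 and 2.65. Both were below the median on all 4 arrays. The gamma chain gene Fcer1g, which other Fc receptors also use, was measured and read 3.62 in control and 3.20 in BER, and 3.76 in DNP and 3.68 in BER+DNP, with BER lowest.

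Of the kinases next to the receptor, Syk and Btk were measured and Fyn was not. Syk, the kinase that binds the phosphorylated chains, read 4.34 in control and 4.26 in BER, and 4.38 in DNP and 4.13 in BER+DNP. Btk, a kinase that activates phospholipase C gamma, read 4.20, 4.19, 4.20 and 4.35. Fyn, a Src family kinase, ran from 2.97 to 3.14, below the median on all arrays.

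The adaptor and phospholipase C genes were measured on all 4 arrays. Lat, the central adaptor, read 5.68 in control and 5.66 in BER, and 5.78 in DNP and 5.87 in BER+DNP. Plcg1, a phospholipase C gamma gene, read 6.24, 6.54, 6.68 and 6.74, with control lowest. Its homologue Plcg2 read 4.55, 4.56, 4.46 and 4.48. Grb2, whose protein links receptors to RAS, read 5.00, 5.10, 4.91 and 4.96. Gab2, the gene of the scaffold that Fyn acts on, read 4.76, 4.75, 4.81 and 5.07. Among these 5 genes no array was high or low throughout. Lat2, an adaptor related to LAT, read 3.71, 3.90, 3.46 and 3.57. Lcp2, the gene of an adaptor that joins LAT to VAV1, read 3.29, 3.63, 3.38 and 3.32. Vav1, an exchange factor for RAC, read 4.54, 4.39, 4.35 and 4.10, with control highest and BER+DNP lowest.

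Among the lipid kinase and protein kinase C genes, Prkcd read 4.43 in control and 4.72 in BER, and 4.73 in DNP and 4.59 in BER+DNP, with control lowest. Its other probe set, also above the line, read 3.88, 4.07, 3.73 and 3.78, with DNP lowest. Prkcb read 3.88, 3.80, 3.81 and 3.88. Pik3cg, the gene of the PI 3-kinase gamma catalytic subunit, read 3.08, 3.52, 3.28 and 3.50, and control was below the median. Pik3cd, the delta counterpart, read 12.60 in control and 12.60 in BER, and 12.16 in DNP and 12.43 in BER+DNP through a probe set that its other probe sets did not match. The brakes on the pathway were also measured. Inpp5d, which encodes the lipid phosphatase SHIP, read 5.71, 5.75, 5.71 and 5.60, and Ptpn6, which encodes a tyrosine phosphatase that dampens the receptor, read 5.89, 5.69, 6.10 and 6.00.

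Berberine was compared in 2 pairs of arrays that share none: BER with control, and BER+DNP with DNP. BER against control shares the control array with DNP against control, and the other comparisons share arrays in the same way. For BER against control, 0 of the 29 measured members were at least 1.5-fold apart, where 1.99% of all 12585 measured genes were. In BER+DNP against DNP there were also 0 of 29, where 1.21% of all genes were. The medians of the members were -0.01 and -0.06 on the log2 scale, and those of all measured genes 0.00 and -0.02. The first of these medians was 0.02 with quantile normalization and 0.00 with no filter, so it has no settled direction. Above 0 in both pairs were 7 members (24.1%, against 25.4% of all genes), and below 0 in both were 9 (31.0%, against 29.7%). These shares are near those of the whole array.

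Spi1 had log2 differences of -0.41 in each berberine pair, and it was the only measured member at least 1.2-fold lower in both, as 3.22% of all genes were. No measured member was 1.2-fold higher in both, as 1.81% of all genes were. Fcer1g read lower by 0.42 in BER than in control but differed by only -0.08 in BER+DNP against DNP. Hdc went from -0.14 in the first pair to 0.50 in the second, and Mcpt2 from -0.14 to -0.52. Higher in BER than in control by their brightest probe sets were Pik3cg (0.44, and 0.22 with anti-DNP IgE), Lcp2 (0.34 and -0.06), Mcpt8 (0.31 and 0.14) and Plcg1 (0.31 and 0.06). None of these reached 1.5-fold. The direction was not shared by the other Lcp2 probe set, at -0.24 in BER against control, nor by the other Plcg1 probe sets, at -0.05 and -0.17, while the other Pik3cg probe set gave 0.46.

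Below the line, Cpa3 was the only member of 11 past 1.5-fold in BER against control, where 1.34% of the 5608 genes below the line were. It was 2.39-fold higher in BER, a log2 difference of 1.26, the highest of all 5608 such genes and the only one among them past 2-fold. With 32 added to the linear signals before log2, this difference was 0.19 and no longer passed 1.5-fold. That amount exceeds the linear signal of Cpa3 on every array, so it shrinks any difference of so dim a gene and does not check it. In BER+DNP against DNP, Cpa3 differed by -0.04, and 0 of the 11 members were past 1.5-fold (0.874% of the 5608). Cpa3 has 1 probe set and no replicate, so neither value has a check. The next member, Srgn, gave 0.41 and 0.02. Kit gave 0.24 and 0.34 by its brighter probe set and -0.38 and 0.02 by the other, so its direction in BER against control is not settled. Gata1 gave -0.22 and -0.18.

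Control probe sets also differed between the arrays. The poly-A spike-in probe sets had median differences of -0.43 for BER minus control and -0.13 for BER+DNP minus DNP. Toward the 5′ end, the beta-actin control gave -0.57 and -0.59. Its 3′ probe set gave -0.31 and -0.22. The Gapdh 5′ probe set gave 0.05 and -0.08, its 3′ probe set -0.03 and 0.02, and the hybridisation controls 0.04 and 0.13. Shifts were also present for DNP minus control and BER+DNP minus BER. There the poly-A probe sets gave -0.13 and 0.21, and the beta-actin 5′ probe set 0.20 and 0.19. The Gapdh 5′ probe set gave 0.16 and 0.03 in these pairs. The part of these shifts in the members' differences was not tested.

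**Figure D3:**
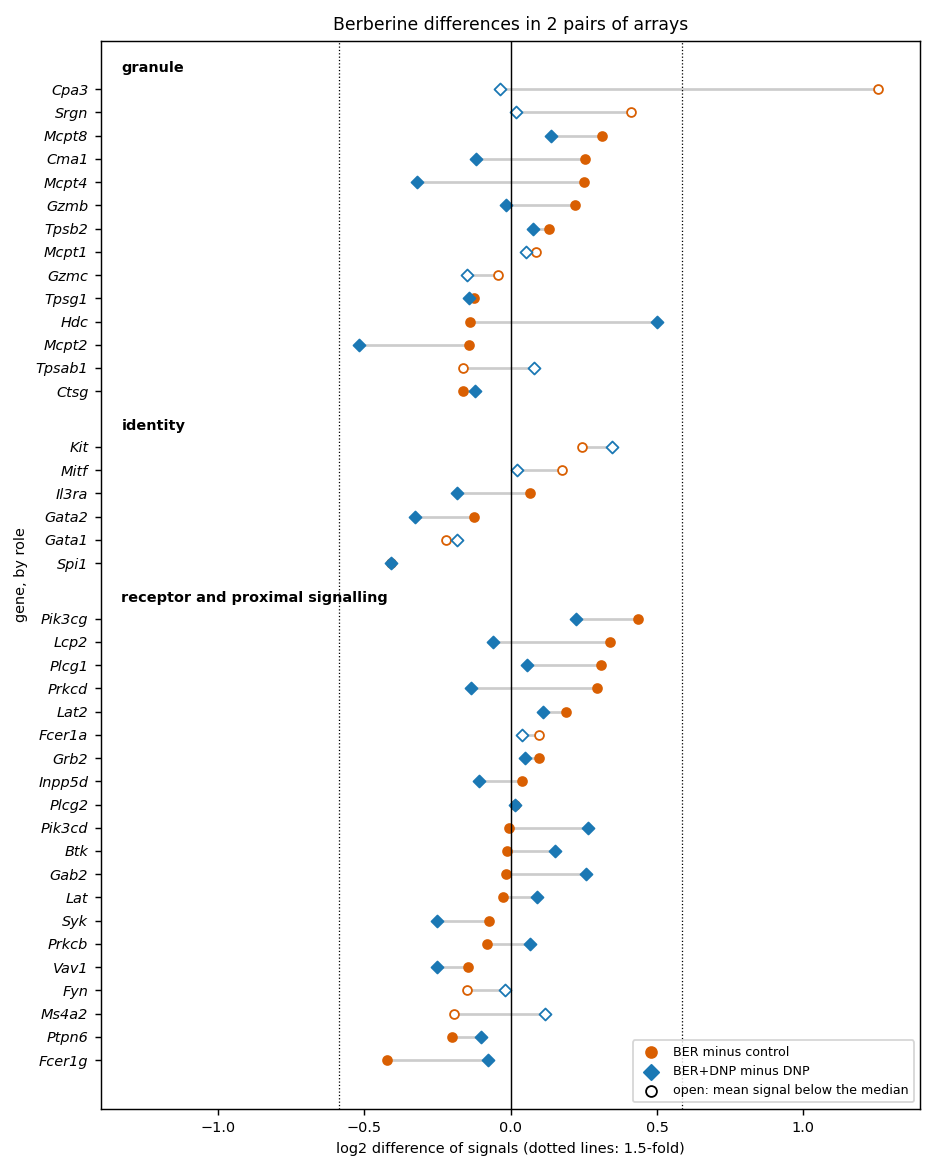
Log2 difference of signals (x axis) for each of 40 genes (y axis, by role) in BER minus control (circles) and BER+DNP minus DNP (diamonds), with open symbols for genes below the median probe set and dotted lines at 1.5-fold. Only Cpa3, at 1.26, passes a dotted line, and Spi1 has both symbols at -0.41.

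Anti-DNP IgE was compared in the pairs DNP with control and BER+DNP with BER. In DNP against control, 2 of the 29 measured members were at least 1.5-fold apart, both higher, where 1.43% of all measured genes were so in either direction and 0.803% were higher. They were the chymase family genes Mcpt2 (1.61-fold, a log2 difference of 0.68) and Mcpt4 (1.51-fold, 0.60). In BER+DNP against BER there were 0 of 29 (0.914% of all genes), and these genes gave 0.31 and 0.02. With quantile normalization 1 of the 2 remained, since Mcpt4 then gave 0.58. With 32 added to the linear signals, Mcpt2 gave 0.19 and Mcpt4 0.19, and neither passed. Their linear signals lie below 32 on every array, so this alternative shrinks their differences in advance and does not check them. Cma1, another chymase gene, gave 0.34 and -0.03, and Gzmb 0.42 and 0.19.

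The medians of the measured members were 0.05 and 0.02 in these pairs, against 0.02 and 0.00 for all genes. The second was -0.01 with the median of all probe sets of a gene. Above 0 in both pairs were 12 members (41.4%, against 29.4% of all genes) and below 0 in both were 9 (31.0%, against 26.0%). Mcpt2 was the only measured member at least 1.2-fold higher in both, as 1.99% of all genes were. At least 1.2-fold lower in both were 0 members, as 1.62% of all genes were. Other genes above 0 in both were Gata2 (0.44 and 0.24), Plcg1 (0.45 and 0.19), Ptpn6 (0.21 and 0.31) and Fcer1g (0.14 and 0.48). Further probe sets did not share all of these signs: the other Gata2 probe set gave -0.07 and -0.05, the other Ptpn6 probe set gave 0.33 and -0.60, and the other Plcg1 probe sets gave -0.17 and -0.07, and -0.29 and -0.14. Below 0 in both were Lat2 (-0.25 and -0.32, but 0.24 and 0.00 by its next probe set), Vav1 (-0.18 and -0.29) and Il3ra (-0.08 and -0.33). Hdc gave -0.10 and 0.54. Pik3cd gave -0.44 and -0.17 by its brightest probe set.

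Of the 11 members below the line, Cpa3 was again the only one past 1.5-fold. It was 1.57-fold higher in DNP than in control (0.65), where 1.5% of the genes below the line were apart, and 1.56-fold lower in BER+DNP than in BER (-0.64), where 0.945% were. The receptor genes Fcer1a (-0.17 and -0.23) and Ms4a2 (-0.31 and 0.00) stayed within 1.5-fold. The summed linear signal of the 11 mast cell markers was 168 in control and 169 in BER, and 192 in DNP and 193 in BER+DNP. The sum follows its brightest probe sets, those of Gata2 and Hdc, and 5 of the 11 markers (Fcer1a, Ms4a2, Tpsab1, Hdc and Slc18a2) read lower in DNP than in control. That of the 10 epithelial markers was also higher in the arrays with anti-DNP IgE, at 1479, 1498, 1628 and 1587 in the same order. That sum follows Krt17 and Krt14, each 0.18 higher in DNP than in control, while Krt5, Krt8, Krt18 and Cldn4 read lower, at -0.17, -0.03, -0.19 and -0.10. The part of these sums in the members' differences was not tested.

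**Figure D4:**
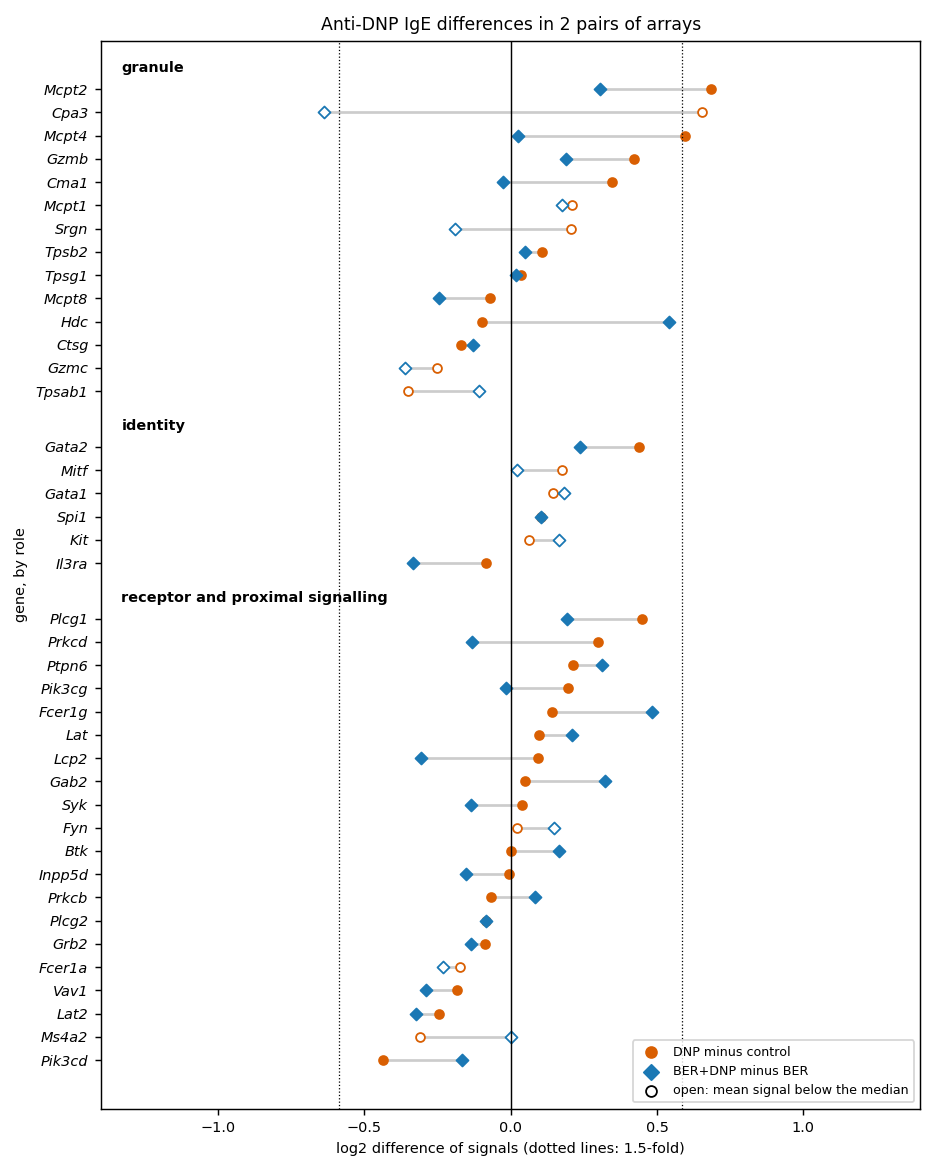
Log2 difference of signals (x axis) for each of 40 genes (y axis, by role) in DNP minus control (circles) and BER+DNP minus BER (diamonds), with open symbols for genes below the median probe set and dotted lines at 1.5-fold. Mcpt2, Mcpt4 and Cpa3 pass the line at the right in DNP minus control, and Cpa3 passes the line at the left in BER+DNP minus BER.

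Further probe sets were available for 20 of the 40 genes. In 10 of these 20, some probe sets lay above the line and some below it. In 6 all lay above it, and in 4 (Kit, Mitf, Ms4a2 and Fyn) all lay below it. The brightest and the next probe set of a gene were a median of 0.95 apart on the log2 scale. Pik3cd was the extreme case: its brightest probe set had a mean of 12.45, while the next had 3.88 and the dimmest 2.11. The probe set at 3.88 gave -0.12 and -0.41 in the berberine pairs, where the brightest gave -0.01 and 0.26. A high level of Pik3cd therefore rests on 1 of 6 probe sets, and which of them reads its transcript is not given in the sources used here.

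The probe sets of a gene often disagreed in sign. Of the 30 further probe sets of these 20 genes, 11 had the sign of the brightest for BER minus control, 14 for BER+DNP minus DNP, 11 for DNP minus control and 17 for BER+DNP minus BER. Ptpn6 gave -0.20 in BER against control by its brightest probe set, which can hybridise to other transcripts, and 0.92 by the other, which read 2.52 in control and 3.44 in BER, and 2.84 in DNP and 2.83 in BER+DNP. Both Hdc probe sets carry the suffix s, of the type shared between transcripts, and the dimmer one, at a mean of 2.37, gave 0.03 in BER+DNP against DNP where the brighter gave 0.50. In BER+DNP against BER the dimmer gave -0.30 and the brighter 0.54, and in BER against control 0.23 and -0.14. Of the Gata2 probe sets, the dimmer gave -0.07 in DNP against control against 0.44 by the brighter. Of the 4 Syk probe sets, 3 were measured, and they gave -0.08, -0.22 and -0.01 in BER against control, while the one below the line gave 0.24. A further Gab2 probe set, at a mean of 4.25, gave -0.64 in BER+DNP against DNP, past 1.5-fold, where the brightest gave 0.26.

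**Figure D5:**
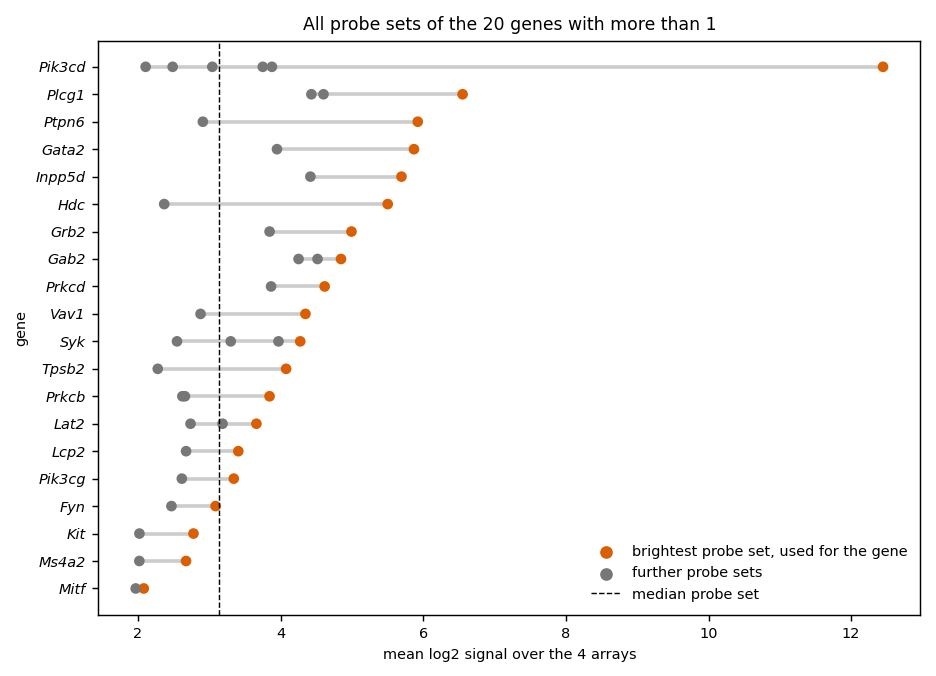
Mean log2 signal over the 4 arrays (x axis) of every probe set of the 20 genes with more than 1 (y axis), the brightest in orange and the others in grey, with a dashed line at the median probe set. Grey points lie left of the line for 10 genes whose orange point lies right of it, and the orange point of Pik3cd stands at 12.45.

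Other genes of the pathway were read against the same shares of all measured genes past 1.5-fold, 0.914% to 1.99% in the 4 comparisons. Of 16 calcium and secretion genes, 14 had a probe set, 13 were measured and 0 were past 1.5-fold in any of the 4 comparisons. Rab3d, whose product sits on secretory vesicles, gave 0.30 and -0.36 in the berberine pairs, and the membrane fusion genes Snap23 and Stx4a gave -0.31 and 0.27, and 0.08 and 0.34. Of 18 RAS, MAP kinase and later signalling genes, 13 had a probe set, all 13 were measured and 0 were past 1.5-fold. The kinase gene Mapk8 gave 0.48 in BER against control, and Nfatc1, which encodes a calcium-regulated transcription factor, gave 0.37 in DNP against control. Of 12 brakes on the pathway, 10 had a probe set and 8 were measured. Sh2b3, an adaptor gene that acts as a brake on cytokine receptors, was past 1.5-fold in both anti-DNP IgE pairs (0.62 and 0.59). Of all 12585 measured genes, 4 were past it in the same direction in both of these pairs. The adaptor genes Dok2 and Dok1 gave -0.41 in BER+DNP against DNP and -0.36 in BER+DNP against BER. Of 9 granule storage and proteoglycan genes, 6 were measured and 0 were past 1.5-fold, with the syndecan gene Sdc4 at 0.38 in BER+DNP against BER, Lyst, whose product shapes granule size, at 0.27 in BER+DNP against DNP, and the heparan sulfate synthesis gene Ext1 at 0.26 in DNP against control. Of 15 growth factor receptor and blood factor genes, 10 were measured and 0 were past 1.5-fold. Csf2ra, which encodes a chain of the GM-CSF receptor, gave -0.55 for DNP minus control and 0.48 for BER+DNP minus DNP, and Lmo2, a partner of GATA factors, gave -0.39 and 0.49 there. Ikzf1, the gene of a lymphoid transcription factor, gave -0.39 for BER minus control and 0.40 for BER+DNP minus BER.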

How the data were processed

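RNA of 4 cultures, 1 per group, was measured on 1-colour Affymetrix arrays. Log2 signals in the deposited table cover 45037 probe sets besides 64 controls, which were set apart. Per the submitters' processing notes, the authors used Affymetrix Expression Console. Its version, how probes were summarised and corrected for background, and any detection calls were not given in the sources used here. Any floor or smoothing of low signals stays in the values. The log2 scale and the normalization between arrays were read from the values. For 3 of 40 members (8.42% of all genes) the brightest probe set is listed with exactly equal signals on at least 2 arrays.

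Symbols came from a platform annotation of 2016, which gives 34945 probe sets a single symbol, 932 several and 9160 none, and only the first kind was used. The brightest probe set by mean signal represented a gene. Genes with a mean of at least 3.138 entered counts (12585). Differences of log2 signals were taken in 4 comparisons, with 1.5-fold as the threshold. With 1 array per group, no test was made. Promoters are from RefSeq, GRCm38.p6. Members, lists and rules were chosen with earlier results of these data known. All members may be named, and from the other pathway lists up to 3 measured genes by largest difference, one of which is not reported here. Alternatives were other choices of probe set, filter, scaling and added signal. The steps were run on simulated data with shifts larger than 1.5-fold, alike in all probe sets of a gene and only in bright genes. That run does not bear on dim genes or on genes whose probe sets disagree. Python 3.11.15 and pandas 2.3.3 were used.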

Additional observations from a re-analysis of the deposited data

Results flagged for a closer look

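Cpa3 was set aside because its anti-DNP IgE difference had opposite signs in the pairs of arrays: 0.65 in DNP against control and -0.64 in BER+DNP against BER. The difference was not tested, since each value rests on 2 single arrays, and Cpa3 read below each array's own median. Of the 5608 genes with a mean below the filter, 2.10% had such opposite differences, each at least 1.2-fold and at least 1.5-fold apart from each other, as did 1.59% of the 12585 measured genes. No member met the same rule for berberine, which 2.01% of the 5608 genes below the filter and 1.47% of the 12585 measured genes met.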

How the results depend on the processing

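Counts past 1.5-fold are small and depend on the filter. With no filter they were 1 for BER minus control and 1 for BER+DNP minus BER (Cpa3 in each), and the median of BER+DNP against DNP was 0.00017. In DNP against control the count of 2 became 3 with no filter, 0 with a filter at the 75th percentile, 1 with quantile normalization and 0 with 32 added to the signals. The count of measured members was 29, and 15 under a 75th percentile filter. No filter and added signal give no such count. No difference past 1.5-fold changed sign under the alternatives run, but most of these could not change it. The members past 1.5-fold, Mcpt2, Mcpt4 and Cpa3, have 1 probe set each, so the choice of probe set leaves them as they are. A filter does not alter a member's value, and added signal cannot turn a sign. Of 1120 values of single members under alternatives, 64 moved by more than 0.194 on the log2 scale. That limit is the standard deviation, over all measured genes, of the difference between the berberine pairs, divided by the square root of 2. The 1120 include 160 values with no filter and 160 with the 75th percentile filter, none of which could move. The total therefore understates the dependence on the other choices. Adding 32 moved 30 values and left 130. Reading each gene by its median probe set value moved 25 and left 135, where the 20 members with 1 probe set could not move. Quantile normalization left all 160 within the limit. Adding 32 to the linear signals took Cpa3 in BER against control from 1.26 to 0.19. Such falls are built into this choice for Cpa3, Mcpt2 and Mcpt4, whose linear signals lie below 32 on every array. Reading Pik3cd by its next probe set was chosen after seeing the data. Without probe sets that can cross-hybridise, Hdc had no value. No paired analysis was possible because the groups, of 1 array each, share fewer than 2 replicate numbers.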
